A study of Mus musculus with 9 samples.

Results

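The ADAM genes encode membrane proteins with a disintegrin and a metalloprotease domain, and 32 of them were measured here in mouse testis. Members were protein-coding genes whose symbol is Adam followed by a number and, where present, the letter a or b, with Adam7 left out and the secreted Adamts proteases not counted. They are 32 of the 21743 protein-coding genes, and of the 32035 genes in all, with a listed transcript. From general knowledge, 20 members were put in a testis-restricted class and 12 in a broad or somatic class. All 32 passed the filter on low counts in each comparison.

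ADAM proteins are built from a prodomain, a metalloprotease domain, a disintegrin domain and a cytoplasmic tail. Somatic members such as ADAM10 and ADAM17 are sheddases, which cut the outer part of growth factors, cytokines and Notch receptors off the cell surface. Several testis members have lost the catalytic residues and act as adhesion or chaperone-like proteins, and ADAM1, ADAM2 and ADAM3 are known for their part in sperm passage through the oviduct and binding to the egg coat.

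The libraries, 3 per genotype, came from whole testes of 15-week-old male C57Bl6/N mice, and poly(A) RNA was sequenced. The genotypes were wild type (WT), Kpna6ΔIBB/ΔIBB and Kpna6-/-. Kpna6 encodes importin α7, a nuclear import adaptor. In Kpna6ΔIBB/ΔIBB mice exon 2 is missing, which leaves a truncated protein without the domain that binds importin β. In Kpna6-/- mice a gene trap sits in intron 1. Per the study's methods and results, germ cells of Kpna6-/- testes can still make the full-length protein from a testis-specific first exon while Sertoli cells cannot, so the total Kpna6 RNA does not check the label of the -/- libraries. Kpna6 stood at 98.3, 163 and 176 TPM in WT testes, at 32, 34.2 and 34.8 TPM in Kpna6ΔIBB/ΔIBB testes and at 134, 137 and 141 TPM in those labelled Kpna6-/-. It was lower in Kpna6ΔIBB/ΔIBB than in WT (log2 fold change -1.79, adjusted p = 1.939e-05), and the -/- values lay within the WT range (log2 fold change -0.18, adjusted p = 0.586). Without WT replicate 1, the lowest WT testis for Kpna6, the -/- libraries were called lower (-0.38, adjusted p = 0.0003445).

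TPM is a transcript level scaled to transcript length and to the library total, and is used below for levels. Fold changes and tests come from edgeR's quasi-likelihood test on estimated counts per gene, with Benjamini-Hochberg adjustment over all genes tested, and a gene is called where the adjusted p is below 0.05. Between 24859751 and 31484692 counts per library fell on genes, of which 111869 to 157116 fell on the family. One Kpna6ΔIBB/ΔIBB library, replicate 3, held 77 TPM of the epididymal gene Crisp1 against 0.22 to 1.92 TPM in the other 2 of its group, and 0.0765 to 4.23 TPM in WT and -/- libraries. The epididymal list of 6 genes summed to 5.85 to 85.2 TPM in Kpna6ΔIBB/ΔIBB, 4.84 to 6.01 TPM in WT and 3.9 to 8.46 TPM in -/- testes, with Lcn5 at 0 throughout. Without that library the family calls of the comparison with WT were the same 21 genes in number and identity.

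The structural feature that separates members is the catalytic site. Active metalloproteases of this family carry a zinc-binding stretch in which histidine and glutamate codons stand at fixed places. The coding stretch of 11 codons aligned to it is shown for members with large and small differences between genotypes, from the GENCODE transcripts on GRCm38 (5′ to 3′ on the coding strand). Capitals mark codons 1, 2, 5 and 11, which encode histidine, glutamate, histidine and histidine in an intact site.
Adam39: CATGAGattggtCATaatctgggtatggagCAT
Adam25: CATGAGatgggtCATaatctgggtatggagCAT
Adam34: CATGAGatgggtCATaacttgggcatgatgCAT
Adam21: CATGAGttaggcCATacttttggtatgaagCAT
Adam29: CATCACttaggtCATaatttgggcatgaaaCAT
Adam4: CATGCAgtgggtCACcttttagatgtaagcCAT
Adam6a: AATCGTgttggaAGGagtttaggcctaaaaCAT
Adam6b: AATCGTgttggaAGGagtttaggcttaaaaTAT
Adam1a: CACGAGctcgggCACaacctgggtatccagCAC
Adam3: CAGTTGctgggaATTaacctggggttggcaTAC
Adam5: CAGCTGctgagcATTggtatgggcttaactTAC
Adam2: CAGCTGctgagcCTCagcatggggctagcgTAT
Adam9: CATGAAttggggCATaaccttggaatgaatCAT
Adam10: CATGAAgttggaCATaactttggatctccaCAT

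Adam39, Adam25, Adam34, Adam21, Adam1a, Adam9 and Adam10 carry the intact pattern. Adam29 and Adam4 keep the histidine codons and lack the glutamate codon, Adam6a keeps only the last histidine codon, and Adam6b, Adam3, Adam5 and Adam2 keep none of the 4. Over the whole family 20 members carry the intact pattern and 12 do not. The stretch lies at chr8:40825636-40825668 for Adam39, in its single coding exon, at chr8:24707418-24707450 for Adam3, inside 1 of its 21 coding exons, and at chr9:70754296-70761585 for Adam10, where an intron splits it. The 4 members at the highest levels in these testes, Adam3, Adam5, Adam32 and Adam2, all lack the intact site.

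In WT testes the ADAM levels spanned from 833 TPM for Adam3 to 0.207 TPM for Adam28. The 4 most abundant were Adam3 (833 ± 20.4 TPM, SD, n = 3), Adam5 (572 ± 13.3 TPM), Adam32 (414 ± 26.8 TPM) and Adam2 (216 ± 10.6 TPM), and their ranges over the 3 WT testes did not overlap. Adam2 encodes fertilin β and Adam3 cyritestin, both sperm surface proteins. Adam1a (104 TPM), Adam1b (82.2 TPM), Adam18 (75.1 TPM) and Adam24 (60.9 TPM) followed, also with ranges apart from one another. Adam30 (50 TPM), the broadly expressed Adam15 (50.1 TPM) and Adam6a (46.5 TPM) overlapped and could not be ordered. Members of the chromosome 8 and 12 groups then ran from Adam20 (42.2 TPM) to Adam26b (8.44 TPM), most of them overlapping their neighbours.

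Apart from Adam15, the broad or somatic members were at 13.1 TPM or less. Protein-coding transcripts held only 12.9 to 18.5% of the Adam15 TPM and 35.8 to 42.8% of that of Adam11, against 88.1 to 90.5% for Adam10. Adam11, a non-catalytic neuronal member, was the next at 13.1 TPM, then Adam10 (9.6 TPM), Adam17 (8.67 TPM) and Adam9 (8.27 TPM). The range of Adam17 overlapped the other two, and those of Adam10 and Adam9 were apart. Adam12, Adam22 and Adam8 lay between 4.6 and 5.26 TPM and overlapped, and Adam33 and Adam23 were at 2.19 and 1.81 TPM. Adam19 and Adam28 were below 1 TPM on average in each genotype, and Adam28 had only 5 to 19 counts per library. A difference in Adam28 was not detectable at this depth.

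**Figure D1:**
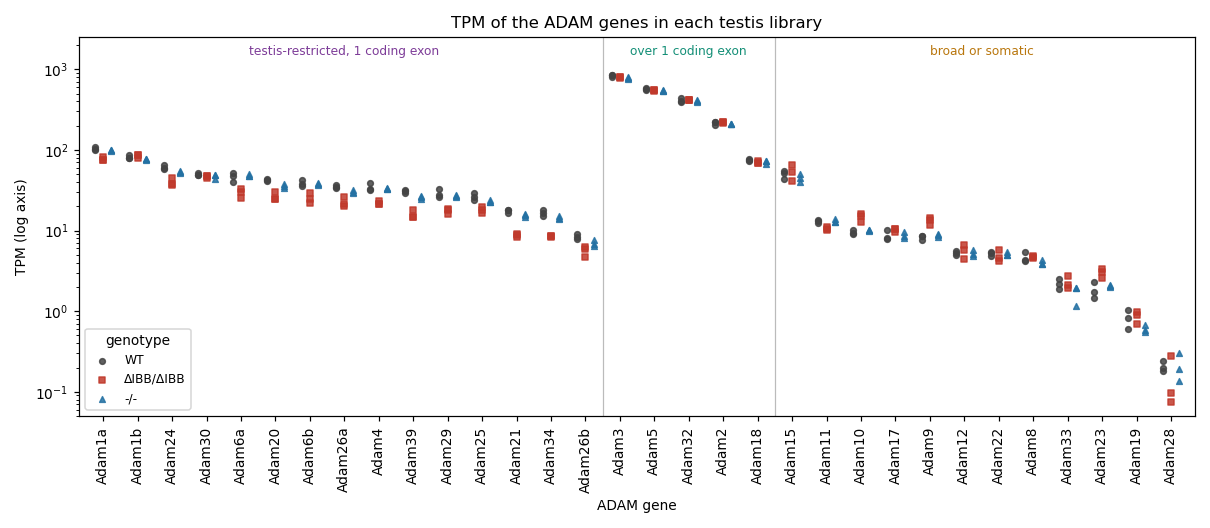
TPM (log axis) of each of the 32 ADAM genes in the 9 testis libraries, 3 points per genotype (circles WT, squares ΔIBB/ΔIBB, triangles -/-), in 3 classes divided by vertical lines. Most testis-restricted genes with 1 coding exon have their 3 ΔIBB/ΔIBB squares below the WT circles, the 5 genes with more coding exons sit close together across genotypes, and Adam9, Adam10 and Adam23 have their squares on top.

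In Kpna6ΔIBB/ΔIBB testes 18 members fell and 3 rose against WT. Testis-restricted members made up 17 of the 18, and none of that class rose, with a median log2 fold change of -0.73 over the 20. Of the 12 broad or somatic members Adam9, Adam10 and Adam23 rose and Adam11 fell, with a median of 0.11. Among all 18797 genes tested 17.7% were called higher and 18.9% lower in Kpna6ΔIBB/ΔIBB, and their median log2 fold change was 0.01. In bulk RNA of a whole testis, fewer cells of a type and less RNA per cell cannot be told apart.

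The largest decreases were in Adam21, Adam34 and Adam39, germ cell members that all carry the intact zinc-binding site. Adam21 was measured at 16.5, 18 and 17.9 TPM in WT, at 8.79, 8.22 and 9.09 TPM in Kpna6ΔIBB/ΔIBB and at 16, 15.6 and 14.8 TPM in -/- testes. Its highest Kpna6ΔIBB/ΔIBB value was well under its lowest value elsewhere, and the fall was 2.19-fold (log2 fold change -1.13 ± 0.07, SE, adjusted p = 6.608e-06). Adam34 was measured at 16.6, 15.1 and 18 TPM in WT, at 8.48, 8.21 and 8.59 TPM in Kpna6ΔIBB/ΔIBB and at 13.8, 15.1 and 14.4 TPM in -/- testes. The 3 Kpna6ΔIBB/ΔIBB testes lay within a narrow band below all others, and the fall was 2.14-fold (log2 fold change -1.10 ± 0.08, adjusted p = 1.106e-05). Adam39 was measured at 29.2, 31.9 and 31 TPM in WT, at 14.9, 14.7 and 18 TPM in Kpna6ΔIBB/ΔIBB and at 26.1, 26.7 and 24.9 TPM in -/- testes. The 3 genotypes were separate here, with -/- between the other two, and the fall in Kpna6ΔIBB/ΔIBB was 2.11-fold (log2 fold change -1.07 ± 0.08, adjusted p = 1.394e-05).

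Members without the intact site fell to a similar degree where their coding region is a single exon. Adam29 was measured at 27.9, 26 and 33.2 TPM in WT, at 17.8, 16.1 and 18.6 TPM in Kpna6ΔIBB/ΔIBB and at 25.7, 27.9 and 26.6 TPM in -/- testes (log2 fold change against WT -0.85 ± 0.08, adjusted p = 4.016e-05). Adam6a was measured at 39.8, 48 and 51.6 TPM in WT, at 32.5, 25.1 and 30.2 TPM in Kpna6ΔIBB/ΔIBB and at 47.9, 47.9 and 50.1 TPM in -/- testes (log2 fold change against WT -0.79 ± 0.10, adjusted p = 0.0001866). For both genes every Kpna6ΔIBB/ΔIBB testis lay below every other testis, while WT and -/- overlapped. Adam4 (-0.77) and Adam6b (-0.74) completed this set.

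Adam20 and Adam24 belong to the chromosome 8 group and were among its more abundant members. Adam20 was measured at 43.3, 40.9 and 42.4 TPM in WT, at 24.8, 24.7 and 30 TPM in Kpna6ΔIBB/ΔIBB and at 33.6, 35.8 and 37.8 TPM in -/- testes (log2 fold change against WT -0.79 ± 0.08, adjusted p = 3.373e-05). Adam24, which encodes testase 1, was measured at 59.3, 58.6 and 64.9 TPM in WT, at 37.6, 36.6 and 44.6 TPM in Kpna6ΔIBB/ΔIBB and at 51.7, 53.2 and 54.8 TPM in -/- testes (log2 fold change against WT -0.74 ± 0.07, adjusted p = 4.124e-05). In both genes the -/- testes lay between the other genotypes without touching either. Adam26a (-0.75), Adam26b (-0.72) and Adam25 (-0.65), which encodes testase 2, fell as well.

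Grouped by gene structure, a division chosen after the values were seen and therefore not tested, the testis-restricted members separated into those with 1 coding exon and those with 19 to 22. Of the 15 with 1 coding exon 14 were called lower, with a median log2 fold change of -0.75 and a range from -1.13 to -0.10. Of the 5 with more coding exons 3 were called lower, with a median of -0.12 and a range from -0.24 to -0.08. Over all protein-coding genes with 1 coding exon 280 of 1407 were called lower and 194 higher, with a median of -0.02. For those with more than 1 the counts were 3055 lower and 3059 higher of 15919, with a median of 0.02. Single-exon and multi-exon, here and below, refer to coding exons alone. Some of the 15 also have non-coding exons, such as Adam34, with 4 exons in all, and Adam20, with 2. Others, such as Adam4 and Adam6a, have 1 exon in all. Among the 15 single-exon members the 11 with the intact site had a median of -0.74 and the 4 without it a median of -0.78.

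Of the multi-exon testis members Adam3, Adam5, Adam32 and Adam2 were the 4 most abundant of the family, and Adam18 stood below Adam1a and Adam1b. Adam3 was measured at 848, 841 and 810 TPM in WT, at 775, 798 and 813 TPM in Kpna6ΔIBB/ΔIBB and at 770, 798 and 760 TPM in -/- testes, with overlap of WT and Kpna6ΔIBB/ΔIBB (log2 fold change -0.08 ± 0.03, adjusted p = 0.06803). Adam2 had 204, 223 and 222 TPM in WT, 213, 224 and 223 TPM in Kpna6ΔIBB/ΔIBB and 212, 212 and 211 TPM in -/- testes. The WT values overlapped those of both mutants, and Adam2 was not called against WT (log2 fold change -0.10 ± 0.04, adjusted p = 0.08727). Adam18 (log2 fold change -0.24, adjusted p = 0.001669) and Adam5 (-0.18, adjusted p = 0.001459) were called lower, but neither was called by limma on log2(TPM + 1), at -0.10 and -0.05. Adam32 was called lower (-0.12, adjusted p = 0.02004), yet its direction turned to 0.02 with limma on TPM, and the call was lost with library size scaling (-0.02), without WT replicate 3 (-0.10) and without Kpna6ΔIBB/ΔIBB replicate 1 (-0.11) or 2 (-0.12). Adam2 turned likewise with limma on TPM and was called without WT replicate 1 (-0.14), and Adam3 turned with scaling by library size alone. Fitting all 9 samples together called both lower (log2 fold change -0.10 for Adam2 and -0.09 for Adam3), as did the replicate block.

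Adam1a and Adam1b, which encode alternative fertilin α subunits, lie next to each other on chromosome 5 and have 1205 bases in common at 99.7% identity, so their counts are split by estimation. Adam1a also matches the neighbouring gene Mapkapk5 over 1811 bases at 99.7% identity and Gm42878 over 4783 bases at 99.9%. The part of these matches in its values was not tested, and the transcript Adam1a-202, which has the full length of the Gm42878 match, held at most 0.709 TPM in a library. Adam1a was measured at 102, 101 and 108 TPM in WT, at 75.2, 75.4 and 80.8 TPM in Kpna6ΔIBB/ΔIBB and at 99.5, 99.4 and 98.1 TPM in -/- testes. It fell in Kpna6ΔIBB/ΔIBB without overlap (log2 fold change -0.55 ± 0.04, adjusted p = 1.476e-05). Adam1b was measured at 79.2, 87.1 and 80.4 TPM in WT, at 79.5, 86 and 85.7 TPM in Kpna6ΔIBB/ΔIBB and at 77.6, 74.7 and 77.9 TPM in -/- testes, and was not called (log2 fold change -0.10, adjusted p = 0.1735). The ratio of Adam1a to Adam1b within a library was 1.29, 1.16 and 1.34 in WT, 0.945, 0.876 and 0.943 in Kpna6ΔIBB/ΔIBB and 1.28, 1.33 and 1.26 in -/- testes. Adam1a was therefore the more abundant of the pair in each WT and -/- testis, and the less abundant in each Kpna6ΔIBB/ΔIBB testis. Summed as 1 gene the pair fell by 0.34 on the log2 scale (adjusted p = 0.0001076). Adam30, also a single-exon gene, differed less than its class (log2 fold change -0.17, adjusted p = 0.02061), and its call was lost without WT replicate 2 (-0.14), without Kpna6ΔIBB/ΔIBB replicate 1 (-0.15) or 2 (-0.17), with library size scaling (-0.07) and with limma (-0.09).

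Other close pairs carry the same limit. Adam25 and Adam39 align over 2621 bases at 95.6% identity, and Adam26a and Adam26b over 2268 bases at 96.2%. These alignments used the GENCODE sequences. Adam39-201 has 2636 bases there but is listed at 2441 bases in the deposited values. The TPM ratio of Adam39 to Adam25 was 1.14, 1.35 and 1.06 in WT and 0.818, 0.89 and 0.922 in Kpna6ΔIBB/ΔIBB testes, and 1.17, 1.12 and 1.1 in -/- testes. All 4 genes of these pairs fell in Kpna6ΔIBB/ΔIBB whether tested singly or summed in pairs.

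Neighbouring members tended to be of 1 structure. On chromosome 8 of GRCm38, Adam18, Adam3, Adam5, Adam32 and Adam9 lie in order between 24602246 and 25016927, all with many coding exons, and their log2 fold changes in Kpna6ΔIBB/ΔIBB ran from -0.24 to 0.51. Further along, Adam24, Adam25, Adam20, Adam39, Adam26b, Adam26a and Adam34 lie between 40675077 and 43710049, all with 1 coding exon, and ran from -1.10 to -0.65. On chromosome 12, Adam4 and Adam21 lie between 81419443 and 81568474 (-1.13 to -0.77), and Adam6b and Adam6a between 113489511 and 113546465 (-0.79 to -0.74). Adam1b and Adam1a on chromosome 5, both with 1 coding exon, were further apart in their changes (-0.55 to -0.10). Adam2 and the scarce somatic Adam28 on chromosome 14, both with many coding exons, ran from -0.62 to -0.10.

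Summed per library, the 15 single-exon members reached 600, 615 and 651 TPM in WT, 441, 428 and 471 TPM in Kpna6ΔIBB/ΔIBB and 569, 579 and 574 TPM in -/- testes. The sum was lowest in each Kpna6ΔIBB/ΔIBB testis. The 5 multi-exon testis members summed to 2109.7 TPM on average in WT, 2057.7 TPM in Kpna6ΔIBB/ΔIBB and 2010.1 TPM in -/- testes. They made up 73.6 to 74.7% of the family's TPM in WT and 77.5 to 79% in Kpna6ΔIBB/ΔIBB testes.

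**Figure D2:**
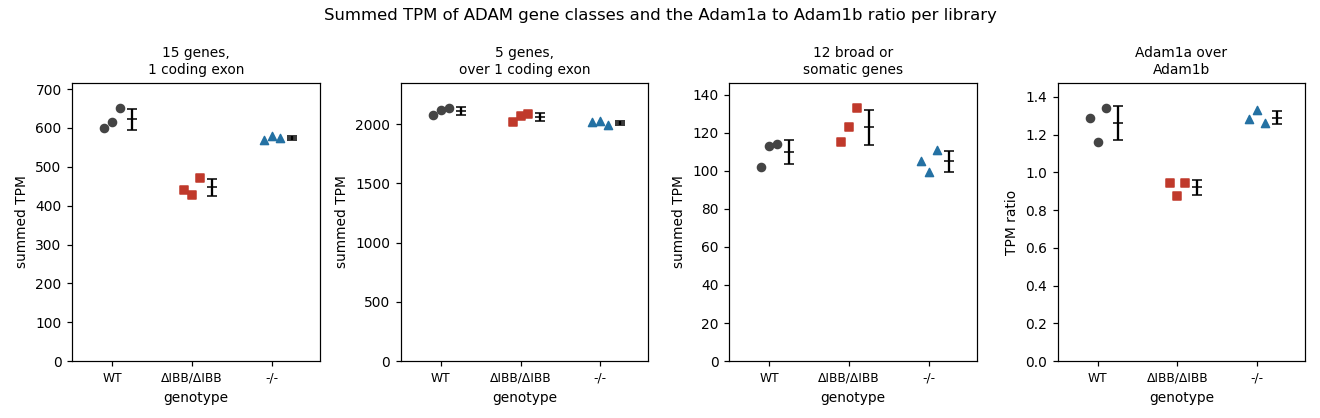
Summed TPM per library of the 15 testis-restricted genes with 1 coding exon, the 5 with more coding exons and the 12 broad or somatic genes, and the TPM ratio of Adam1a to Adam1b (points are libraries, bars the mean ± SD of 3). The sum of those with 1 coding exon lies between 428 and 471 TPM in ΔIBB/ΔIBB and from 569 TPM up elsewhere. The ratio is below 1 in the 3 ΔIBB/ΔIBB libraries alone.

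Among the broad or somatic members 3 rose in Kpna6ΔIBB/ΔIBB. Adam10, the sheddase of Notch receptors, was measured at 10.2, 9.17 and 9.42 TPM in WT, at 16.1, 15.1 and 12.8 TPM in Kpna6ΔIBB/ΔIBB and at 10.1, 10 and 10.3 TPM in -/- testes. Its Kpna6ΔIBB/ΔIBB values were all above the others, a 1.42-fold rise (log2 fold change 0.51 ± 0.07, adjusted p = 0.0004114). Adam9, another sheddase, was measured at 8.58, 7.64 and 8.58 TPM in WT, at 14.2, 13.4 and 11.8 TPM in Kpna6ΔIBB/ΔIBB and at 9.14, 8.89 and 8.32 TPM in -/- testes. WT and -/- overlapped and the Kpna6ΔIBB/ΔIBB values stood above both, again a 1.42-fold rise (log2 fold change 0.51 ± 0.07, adjusted p = 0.0003322). Adam23, a non-catalytic receptor of the LGI proteins, was measured at 1.44, 1.71 and 2.27 TPM in WT, at 3.34, 2.58 and 3.04 TPM in Kpna6ΔIBB/ΔIBB and at 2.1, 2.07 and 1.99 TPM in -/- testes. It rose 1.51-fold (log2 fold change 0.60 ± 0.12, adjusted p = 0.003036), and by 1.29 on the log2 scale over its protein-coding transcripts alone. The value of 1.29 rests on low estimates. Its coding transcript Adam23-201 was put at 0.608, 0.555 and 2.4e-06 TPM in WT testes. Protein-coding transcripts held 15.3 to 54% of the Adam23 TPM in WT.

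Adam17, the sheddase of TNF, was measured at 7.86, 8.07 and 10.1 TPM in WT, at 9.47, 10.5 and 10.4 TPM in Kpna6ΔIBB/ΔIBB and at 8, 8.48 and 9.5 TPM in -/- testes. The genotypes overlapped, and it was not called (log2 fold change 0.11 ± 0.07, adjusted p = 0.2211), except with library size scaling (0.21, adjusted p = 0.02662). Adam11 was measured at 12.3, 13.7 and 13.3 TPM in WT, at 11.1, 10.1 and 10.5 TPM in Kpna6ΔIBB/ΔIBB and at 12.8, 14.1 and 12.7 TPM in -/- testes, and fell 1.37-fold (log2 fold change -0.45 ± 0.10, adjusted p = 0.005552). Adam15, the most abundant of the class, varied within genotypes, from 43.5 to 55.1 TPM in WT and from 41.3 to 65.6 TPM in Kpna6ΔIBB/ΔIBB testes. It was not called (log2 fold change 0.14 ± 0.11, adjusted p = 0.3623). The remaining members of the class, Adam8, Adam12, Adam19, Adam22, Adam28 and Adam33, were not called, with log2 fold changes from -0.62 for Adam28 to 0.20 for Adam12.

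Cell type markers moved in the same comparison, and their part in the ADAM differences was not tested. Over all genes tested 17.7% were called higher and 18.9% lower in Kpna6ΔIBB/ΔIBB. All 8 round spermatid markers were lower in Kpna6ΔIBB/ΔIBB (median log2 fold change -0.46), with summed levels of 963 to 1097 TPM against 1201 to 1333 TPM in WT and 1133 to 1241 TPM in -/- testes. All 8 elongating spermatid markers were lower too (median -0.37), with sums of 56479 to 64659 TPM against 67711 to 77823 TPM in WT and 76052 to 77679 TPM in -/- testes. Of 8 pachytene spermatocyte markers 2 were lower (median -0.02), with sums of 8010 to 8140 TPM against 7621 to 8076 TPM in WT and 7758 to 8137 TPM in -/- testes. The single-exon ADAM median of -0.75 was below the medians of these lists, and the multi-exon median of -0.12 lay between those of pachytene and elongating spermatid markers.

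On the somatic side all 8 Sertoli markers were higher (median 0.57). They summed to 1563 to 1912 TPM in Kpna6ΔIBB/ΔIBB, 998 to 1092 TPM in WT and 1184 to 1267 TPM in -/- testes. TPM is a share of the library total and does not count cells. The paper counted fewer Sertoli cells per tubule in adult testes of both mutants. Its real-time PCR on whole testes found no significant change in Rhox5, Wt1, clusterin (Clu) or Cldn11, which are among these markers. Macrophage markers were higher for 3 of 6 (median 0.38), with sums of 40.9 to 45 TPM against 26.9 to 32.3 TPM in WT. Peritubular and endothelial markers were higher for 2 of 6 (median 0.28) and Leydig markers for 2 of 6 (median 0.12). Among all genes tested the share called higher was 17.7%. Spermatogonium markers, of germ cells rather than somatic cells, were higher for 3 of 8 with 1 lower (median 0.24). Apart from Lcn5 no marker was at 0 in every library. Adam9 and Adam10, at 0.51, and Adam23, at 0.60, stood near the Sertoli median. Single markers of other somatic lists, such as Mrc1 (0.53) and Acta2 (0.64), stood near these values too, while others such as Pecam1 (-0.01) did not. The cells in which the 3 ADAM genes rose were not tested.

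**Figure D3:**
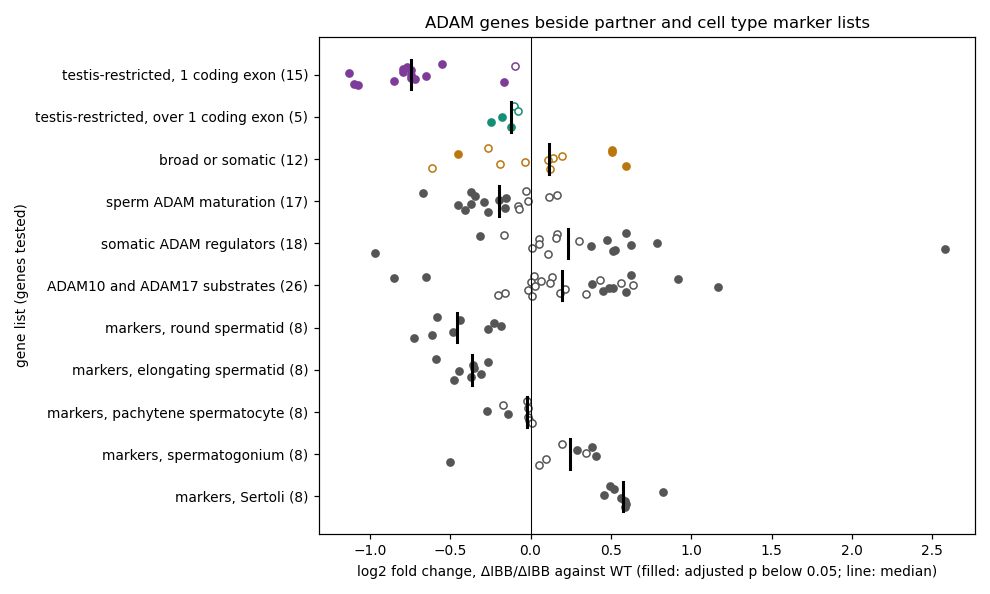
Log2 fold change in ΔIBB/ΔIBB against WT (horizontal axis) for the ADAM classes, for genes that serve ADAM proteins and for cell type markers, 1 point per gene tested, filled where the adjusted p is below 0.05, with the median as a vertical line. The median of testis-restricted ADAM genes with 1 coding exon is at -0.75. The spermatid marker medians are at -0.46 and -0.37 and the Sertoli median at 0.57.

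Of 17 genes for folding, processing or surface display of sperm ADAM proteins 11 were called lower in Kpna6ΔIBB/ΔIBB. None was called higher and 6 were not called, with a median log2 fold change of -0.20. The shares over all genes tested were 18.9% lower and 17.7% higher. Pdilt, a testis chaperone needed for ADAM3 folding, was measured at 112, 105 and 119 TPM in WT, at 74.5, 69.6 and 85.5 TPM in Kpna6ΔIBB/ΔIBB and at 102, 104 and 119 TPM in -/- testes. Its Kpna6ΔIBB/ΔIBB values were below all others (log2 fold change -0.67 ± 0.07, adjusted p = 6.56e-05). The serine protease genes Prss55 (-0.45) and Prss37 (-0.37), Galntl5 (-0.41), a glycosyltransferase-like gene, and Calr3 (-0.37), which encodes the chaperone calsperin, fell as well, the last not called by limma on TPM. Clgn, which encodes the ADAM chaperone calmegin, had a log2 fold change of -0.03 and was not called.

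Of 18 regulators of somatic ADAMs 8 were higher and 2 lower, with a median of 0.23. The shares over all genes tested were 17.7% higher and 18.9% lower. Timp1, an inhibitor of metalloproteases including ADAM10, was measured at 2.44, 1.11 and 1.05 TPM in WT, at 14.8, 10.4 and 5.51 TPM in Kpna6ΔIBB/ΔIBB and at 1.27, 1.15 and 2.29 TPM in -/- testes. All 3 Kpna6ΔIBB/ΔIBB values were above the rest, though spread among themselves (log2 fold change 2.58 ± 0.39, adjusted p = 0.0005128). Tspan17 (0.79), a tetraspanin that escorts ADAM10, Furin (0.60), which removes prodomains, and Rhbdf1 (0.63), an iRhom partner of ADAM17, were higher, and Timp4 (-0.97) lower. The calls of Rhbdf1 and Timp4 were lost with limma on TPM.

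Of 29 known substrates of ADAM10 and ADAM17 26 were tested, 8 were higher and 2 lower, with a median of 0.20. The shares over all genes tested were again 17.7% higher and 18.9% lower. Cx3cl1, fractalkine, rose from 1.7 ± 0.106 TPM to 4.42 ± 0.699 TPM (SD, n = 3), and its log2 fold change was 1.17. Tnfrsf1a, a TNF receptor, rose by 0.92 on the log2 scale. The Notch ligands Dll1 (-0.85) and Jag1 (-0.65) fell, and the receptor Notch1 (0.63) rose, a call lost with limma on TPM.

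In the libraries labelled Kpna6-/- 1 member was called against WT. Adam39 fell by 0.24 on the log2 scale (SE 0.05, adjusted p = 0.04659), and the call was lost in most alternatives, among them each removal of 1 library except WT replicate 1 (values from -0.25 to -0.20). Among all 18681 genes tested 0.889% were called higher and 0.712% lower. At an unadjusted p below 0.05, 10 members passed, of which Adam39, Adam20, Adam24, Adam26a, Adam26b, Adam21, Adam25, Adam34 and Adam19 were lower and Adam10 higher, where 7.08% of all genes passed as lower and 7.79% as higher. Adam20 (log2 fold change -0.23, adjusted p = 0.05563), Adam24 (-0.19, adjusted p = 0.06571) and Adam26a (-0.19, adjusted p = 0.08651) were nearest to a call, and without -/- replicate 3 Adam20 was called in place of Adam39 (-0.28). The family median was -0.06, with 24 of 32 log2 fold changes below 0, and the median of all genes was 0.00.

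The 15 single-exon testis members had a median of -0.17 in this comparison and the 5 multi-exon ones -0.05. Round spermatid markers had a median of -0.09, elongating spermatid markers 0.04 and Sertoli markers 0.19, with 2 of 8 Sertoli markers called higher. Of the sperm ADAM maturation genes none was called, Tspan17 was the 1 regulator called (0.41, higher), and Jag1 the 1 substrate called (-0.27, lower). Both mutant genotypes were compared with the same 3 WT testes.

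Compared directly, Kpna6ΔIBB/ΔIBB and -/- testes differed in 20 members. In Kpna6ΔIBB/ΔIBB 16 were lower, 15 of them testis-restricted, and Adam9, Adam10, Adam19 and Adam23 were higher, against 16.8% lower and 13.5% higher among all 18752 genes tested. The testis-restricted median was -0.54, and that of the single-exon members -0.57, with 13 of 15 called. Adam21 (log2 fold change -0.97 ± 0.06, adjusted p = 1.647e-06), Adam34 (-0.92 ± 0.07, adjusted p = 3.016e-06) and Adam6a (-0.88 ± 0.08, adjusted p = 9.666e-06) differed most. Adam1a had a log2 fold change of -0.50 and Adam1b of -0.02 (adjusted p = 0.8148). Adam11 (-0.33) was also called lower, a call lost without Kpna6ΔIBB/ΔIBB replicate 2 (-0.28) or -/- replicate 2 (-0.25) and with library size scaling (-0.23). That of Adam26b (-0.46) was lost without -/- replicate 3 (-0.38) and with limma on log2(TPM + 1) (-0.28) and log2(TPM + 0.1) (-0.32).

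The multi-exon testis members differed little here, at -0.21 for Adam18, -0.12 for Adam5 and between -0.09 and -0.05 for Adam2, Adam32 and Adam3. Of these, Adam18 and Adam5 were called. By TPM, Adam2 and Adam32 stood slightly higher in Kpna6ΔIBB/ΔIBB. Adam5 turned to 0.02 with limma and lost its call with library size scaling (-0.03), and Adam18 lost its call with limma (-0.02) and with library size scaling (-0.11). Adam10 was higher by 0.34 ± 0.06 (adjusted p = 0.001819) and Adam9 by 0.42 ± 0.07 (adjusted p = 0.0006522). Adam19, which encodes meltrin β, was measured at 0.903, 0.684 and 0.98 TPM in Kpna6ΔIBB/ΔIBB, at 0.558, 0.58 and 0.668 TPM in -/- and at 0.827, 0.608 and 1.04 TPM in WT testes. It was higher than in -/- (log2 fold change 0.52 ± 0.16, adjusted p = 0.0305), and the call was lost without Kpna6ΔIBB/ΔIBB replicate 1 (0.41), without -/- replicate 1 (0.49), without -/- replicate 2 (0.45), with DESeq2 (0.52) and with limma on log2(TPM + 1) (0.21) and log2(TPM + 0.1) (0.43).

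**Figure D4:**
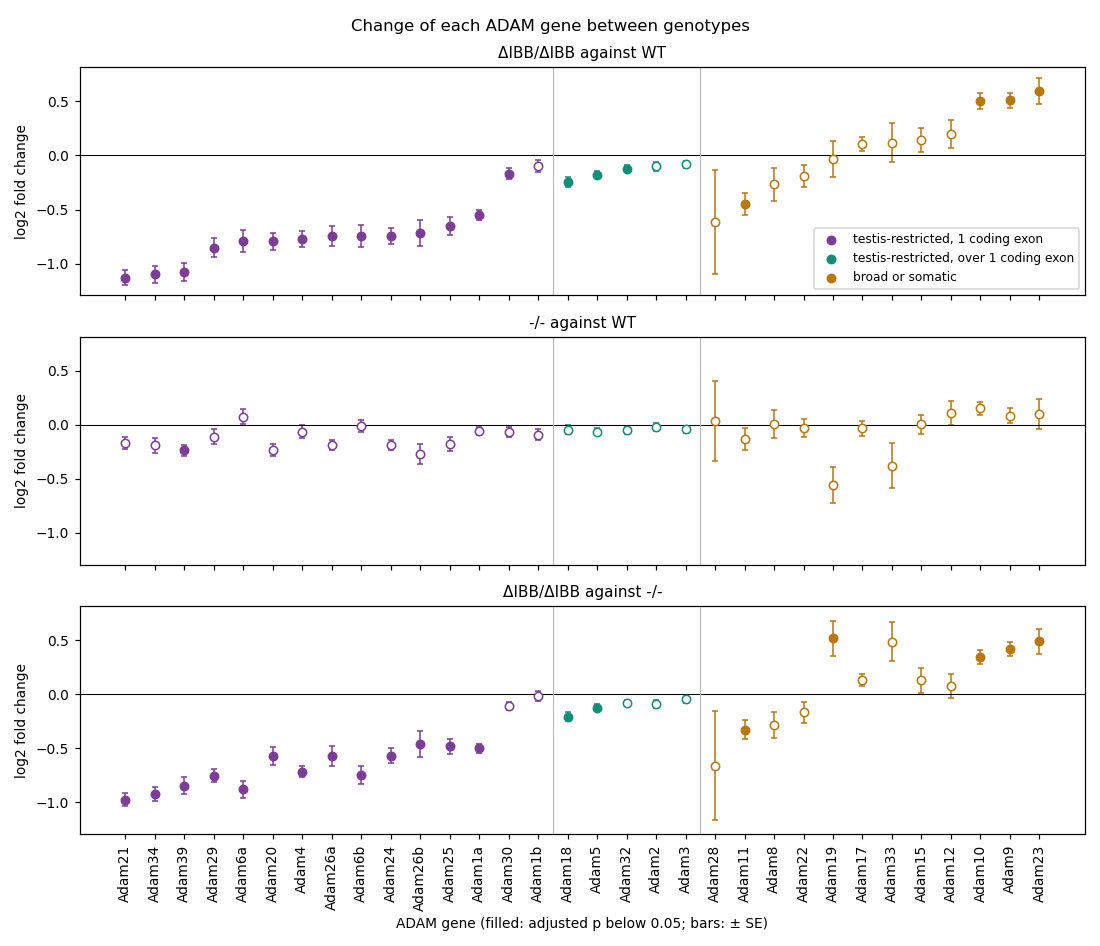
Log2 fold change ± SE of each ADAM gene in 3 panels, ΔIBB/ΔIBB against WT, -/- against WT and ΔIBB/ΔIBB against -/-, with genes in the order of the top panel within each class and filled where the adjusted p is below 0.05. The genes with 1 coding exon, from Adam21 to Adam1a, are below 0 in the top and bottom panels. Testis-restricted genes with more coding exons stay between -0.24 and 0. In the middle panel Adam39 is the 1 filled point.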

How the data were processed

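Whole testis poly(A) RNA was sequenced in pairs on a NovaSeq, in 9 libraries, 3 per genotype. The authors pseudo-aligned reads to mm10 with kallisto (version 0.45 per the processing notes) and deposited an estimated count and a TPM per transcript. The transcript release is not given in the sources used here. Transcripts were summed per gene through GENCODE M21 (GRCm38), and 95301 of 96626 were assigned. Of the 151 family transcripts 140 had the same length in the deposited values and in GENCODE M21. Among those that differed were Adam34-201 (2335 against 2584 bases) and Adam39-201 (2441 against 2636). Estimated counts were rounded and tested with edgeR 4.0.16 (TMM, filterByExpr, glmQLFit, glmQLFTest, R 4.3.3) in each pair of genotypes, with Benjamini-Hochberg adjustment. The SE is the log2 fold change over the root of F. Labels do not say more of the replicates than their number, so whether the 3 of a genotype came from separate mice is not stated. The p-values measure the spread between these libraries, which the text also calls testes. The members, classes and lists were chosen with earlier results of these data known. Members at a mean of 1 TPM or more in a genotype were named, with the 5 largest calls of each partner list. The stretches were found by translating the longest coding sequence and aligning with mafft 7.526, and close copies with blastn 2.17.0+ (95% identity over 100 bases). For Adam15 and Adam33 the longest coding sequence was that of a transcript not annotated as protein-coding. The script was tested on simulated data. Alternatives were DESeq2 1.42.0, its size factors, library size scaling, other count filters, limma 3.58.1 on log2(TPM + 1) and log2(TPM + 0.1), all 9 samples in 1 fit, a replicate block, protein-coding transcripts alone, close copies summed and each library left out. The authors' sleuth test was not used here. No 2 libraries held the same counts.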

Additional observations from a re-analysis of the deposited data

How the results depend on the processing

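The number of members called in Kpna6ΔIBB/ΔIBB against WT was 21 and stayed between 17 and 23 over 17 alternatives, from 19 to 22 when 1 library was left out. Against -/- it was 20 and stayed between 16 and 21, from 18 to 21 when 1 library was left out. In -/- against WT the count of 1 became 3 with DESeq2 and without a filter, and 2 with close copies summed. With copies summed, the 1 result of a pair was counted for both its members, here Adam25 and Adam39. Adam1b was counted as called in this way in Kpna6ΔIBB/ΔIBB against WT. The -/- count against WT became 0 with library size scaling, the filter of 5 counts and limma at either pseudocount. The same held for all 9 samples in 1 fit, the replicate block and protein-coding transcripts alone. When 1 library was left out, the count in -/- against WT ranged from 0 to 1. That comparison is limited by its small differences.

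Scaling by library size alone moved the median of all genes to 0.11 in Kpna6ΔIBB/ΔIBB against WT and the calls over all genes from 3327 higher and 3547 lower to 5416 and 2326, or to 3925 and 1622 with limma on log2(TPM + 1). Against -/- the calls moved from 2523 higher and 3150 lower to 4931 and 2016, or 3794 and 1330. Small differences turned direction with it. Against WT, Adam1b (0), Adam3 (0.017) and Adam19 (0.065) did so with library size scaling. With limma on log2(TPM + 1) and log2(TPM + 0.1), Adam1b (0.027 in both), Adam2 (0.024 in both), Adam8 (0.039 and 0.047), Adam19 (0.027 and 0.06) and Adam32 (0.023 in both) did. Adam33 turned to -0.24 with protein-coding transcripts alone, and Adam19 ranged from -0.148 to 0.077 when 1 library was left out, above 0 without WT replicate 1 and without Kpna6ΔIBB/ΔIBB replicate 2. Against -/-, Adam2 (0.01) and Adam32 (0.018) turned with library size scaling, and with limma Adam2 (0.053 in both), Adam5 (0.022 in both), Adam8 (0.20 and 0.241) and Adam32 (0.045 in both) did. The cause was not tested. Adam12 (0.65) and Adam15 (0.33) were called higher against WT with protein-coding transcripts alone. With library size scaling Adam17 was called higher against WT (0.21) and against -/- (0.23), and Adam33 against -/- (0.59). Against -/-, Adam8 was called lower without Kpna6ΔIBB/ΔIBB replicate 1 (-0.38) and Adam2 without replicate 3 (-0.10).

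Same-numbered libraries did not deviate together, with correlations between -0.04 and 0.14, so the numbers were not read as pairs. With the replicate block 23 members were called against WT, 21 in Kpna6ΔIBB/ΔIBB against -/-, where Adam30 was gained, and 0 in -/- against WT.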

Other observations

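Transcripts of 1 gene did not always move together. Of the 572 TPM of Adam5 in WT testes, the transcript Adam5-201 held 253, 259 and 258 TPM and Adam5-202 298, 311 and 317 TPM. In Kpna6ΔIBB/ΔIBB testes Adam5-201 was at 279, 275 and 275 TPM and Adam5-202 at 256, 273 and 279 TPM. The first was thus higher, and the second lower, than in each WT testis. Adam3-201, the main coding transcript of Adam3, was at 562, 574 and 568 TPM in WT and 580, 602 and 593 TPM in Kpna6ΔIBB/ΔIBB testes, while the short non-coding Adam3-202 was at 119, 101 and 84.4 TPM and at 61.3, 60.8 and 75.9 TPM. These transcripts were chosen after their values were seen, and the differences were not tested.

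By TPM, several somatic members stood mostly on transcripts not annotated as protein-coding. TPM weighs short transcripts more than the counts used in the tests do. Protein-coding transcripts held 7.65 to 12.9% of the TPM of Adam12 in WT and 19.6 to 27% in Kpna6ΔIBB/ΔIBB testes. In WT they held 12.9 to 18.5% for Adam15, 16.1 to 22.2% for Adam33 and 37 to 37.7% for Adam8. For Adam11 they held 35.8 to 42.8% and for Adam23 15.3 to 54%, against 88.1 to 90.5% for Adam10 and 100% for Adam9.

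Promoter windows (250 bases before to 50 after the start, RefSeq, GRCm38.p6) were at hand for 17 members. The cAMP response element TGACGTCA, searched on both strands, was in none of their 19 windows and in 1.79% of all 32851. Its short form TGACG, which the former contains, was in the window of Adam10 and in 20.8% of all. The X-box core GTTGCC was in those of Adam26b and Adam19 and in 12.5% of all.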
